A study of Apis mellifera with 2 samples.

Results

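Toll and Imd are the signalling routes that tie the sensing of microbes to immune gene expression in insects. In Drosophila, where both were worked out, recognition proteins that bind microbial cell walls act upstream of Toll receptors and of the adaptor Imd, and the NF-kappaB factors Dorsal, Dif and Relish act downstream. Cactus, the insect IkappaB, holds Dorsal and Dif in the cytoplasm until Toll is active. Hemocytes are the circulating cells of insect blood, and they take part in this defence by phagocytosis, by melanization and by making immune proteins.

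Described here are 3 honey bee (Apis mellifera) genes, placed under these routes and chosen by their RefSeq symbols. The members are 18-w, a receptor of the Toll family named after Drosophila 18-wheeler, Imd, and cact1, a cactus gene. They are 3 of 9935 genes in the deposited tables and hold 8 of 23471 coding sequences. Measured values played no part in the rule, although the genes were picked with earlier results of these data known. RNA was sequenced from hemocytes of Apis mellifera carnica at 2 life stages, with 1 library per stage. The adult library came from bees less than 1 day old, which had emerged from capped brood held at 34 °C. For the larval library, worker larvae of 8 days, in instar 5, were bled. The number of insects behind each pellet is not stated in the sources used here.

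Estimated counts totalled 16880784 for the adult library and 17657463 for the larval one. An estimated count is a read count per coding sequence that need not be whole because reads matching several sequences are divided among them. Levels are given as TPM, which is corrected for depth and for coding length, or as CPM, counts per 1000000 scaled between the libraries with TMM factors, which is not corrected for length. Of the 12 hemocyte markers listed, 2 could be matched by symbol. PPO, the prophenoloxidase of melanization, stood at 14041 CPM in adult hemocytes and 28019 CPM in larval hemocytes, and Dscam, a receptor of the immunoglobulin family, at 23.0 and 29.2 CPM. Markers of other tissues also differed between the libraries. The 7 fat body genes summed to 189.8 CPM in adult hemocytes and 6888 CPM in larval hemocytes, the 2 neuronal genes to 1095 and 244 CPM, the 4 muscle genes to 25.2 and 39.2 CPM, and the 7 oenocyte and cuticle genes to 141.5 and 52.3 CPM. Except for the neuronal genes, the sums hold genes that ran opposite ways. Vg, the yolk precursor vitellogenin, made up 119.7 CPM of the adult fat body sum and had 0.320 CPM in the larval library, whose sum was mostly Hex110 and HEX70b, hexamerin storage proteins, at 4002 and 2034 CPM there. Cyp4g11, an oenocyte cytochrome P450, was called higher in the adult library and CPF1, a cuticle protein gene, in the larval library. The neuronal sums were nearly all Syt1, at 1094 CPM in adult hemocytes and 244 CPM in larval hemocytes. The other, brp, the neuronal active-zone gene, was at 1.36 CPM in the adult library and at 0 in the larval library. In the larval library 4 of the oenocyte and cuticle genes were also at 0, 1 of which was at 0 in the adult library too. The part that other tissues have in the values below was not tested, and in RNA from a cell pellet fewer cells of a type and less RNA per cell cannot be told apart.

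Each stage has 1 library, so nothing could be tested across replicates and every difference is one between these libraries. The 95% intervals are exact and cover counting error only. PCR copies of a molecule are counted as separate reads, which can make them too narrow. A gene is called higher in a library where the fold and the interval bound nearest 1 are both at least 2 and the level there is at least 10 CPM. By this rule of size 9.99% of the 8798 genes compared were called higher in the adult library and 10.6% in the larval library. Of the 3 members, which all had the 10 counts needed to be compared, 1 was called higher in the adult library, none in the larval library, and 2 were not called. At 4-fold in place of 2-fold, a size passed by 3.14% of genes toward the adult library and 2.72% toward the larval library, no member was called.

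The receptor gene 18-w was the member that differed most. It had 2065 counts in the adult library, against 553 in the larval library, which is 108 CPM (104 to 113) against 35.3 CPM (32.5 to 38.4). The fold of adult over larva was 3.06, a log2 fold of 1.62, with an interval of 2.79 to 3.37 for the ratio. Per coding length it stood at 21.5 TPM in adult hemocytes and 4.75 TPM in larval hemocytes. That placed it above 49.9% of all genes in the adult library and above 34.8% in the larval library.

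The adult-side difference of 18-w lay inside the range of many other genes. Of the genes compared, 932 (10.6%) had a higher log2 fold. Genes with long coding sequences were on the whole relatively higher in the adult library, and 18-w, at 4113 bases, belongs to the longest eighth, which starts at 3339 bases. In that eighth, of 1100 genes, the median log2 fold was 0.36, 16.2% were called higher in the adult library, and 12.5% had a higher log2 fold than 18-w. Among the 1099 genes in the same eighth by mean CPM, the median was -0.16 and 2.55% had a higher log2 fold. The part that coding length has in the difference of 18-w was not tested.

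Imd, the adaptor with a death domain that in Drosophila passes the signal from peptidoglycan receptors toward Relish, was per coding length the most abundant member in both libraries. It had 1446 counts in the adult library, against 1047 in the larval library, or 75.9 CPM (72.0 to 79.9) against 66.9 CPM (62.9 to 71.1). The log2 fold was 0.18, with a ratio of 1.13 (1.05 to 1.23). The interval excluded 1 by counting error alone, but the difference was smaller than the 0.35 by which the median over all genes moved between TMM scaling and plain totals. Per coding length Imd stood at 112.9 TPM in adult hemocytes and 69.7 TPM in larval hemocytes, above 85.4% and 81.8% of genes.

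The inhibitor gene cact1 was the least abundant member in CPM and lay near the middle of all genes per coding length. It had 412 counts in the adult library, against 428 in the larval library, or 21.6 CPM (19.6 to 23.8) against 27.4 CPM (24.8 to 30.1). Its log2 fold was -0.34, with a ratio of 0.790 (0.689 to 0.907). The sign of that fold depended on the scaling: it was 0.01 with plain totals, and 0.20 in the authors' TPM, in which cact1 stood at 18.6 TPM in adult hemocytes and 16.1 TPM in larval hemocytes. Its log2 fold lay 0.36 below the median of the genes compared with TMM scaling, a gap that a change of library factors cannot alter, and 0.29 below it with TPM. Per coding length it was above 47.1% of genes in adult hemocytes and 53.4% in larval hemocytes.

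**Figure D1:**
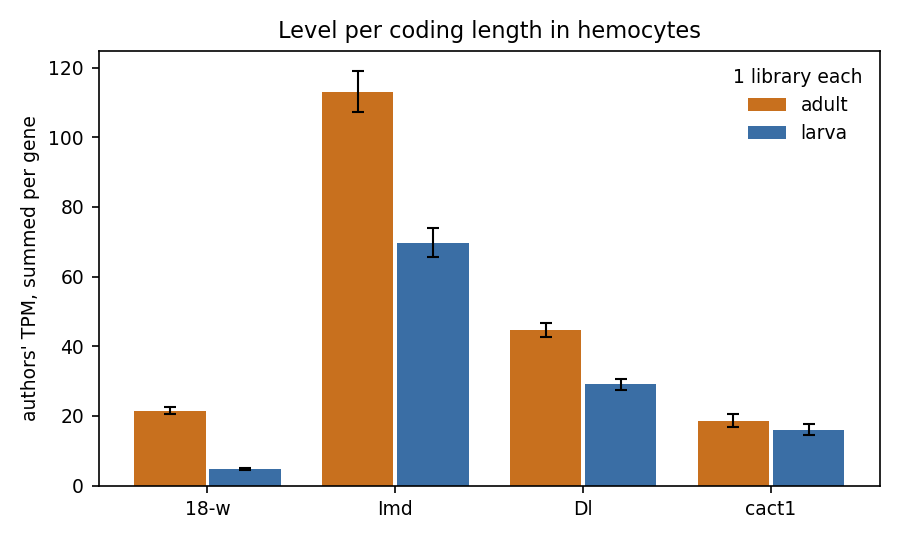
TPM summed per gene (vertical axis, from 0) for 18-w, Imd, cact1 and the transcription factor gene Dl, with the adult bar left of the larval bar and 1 library per bar. Error bars are exact 95% Poisson intervals (counting error only). Imd is the tallest pair at 112.9 and 69.7 TPM, and 18-w, at 21.5 and 4.75 TPM, is above cact1 in the adult library and below it in the larval library.

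The order of levels per coding length was therefore Imd, 18-w and cact1 in the adult library, at 112.9, 21.5 and 18.6 TPM, and Imd, cact1 and 18-w in the larval library, at 69.7, 16.1 and 4.75 TPM. Counting intervals of neighbours in that order did not overlap, although those of 18-w (20.6 to 22.5 TPM) and cact1 (16.8 to 20.4 TPM) came close in the adult library. The transcription factor gene Dl, which encodes a bee dorsal protein, a partner that cactus inhibits in Drosophila, stood between Imd and the others in both, at 44.6 TPM in adult hemocytes and 29.1 TPM in larval hemocytes. With 1828 counts in the adult library, against 1403 in the larval library, it had a log2 fold of 0.10 and a ratio of 1.07 (0.997 to 1.15), which includes 1. Dl is overlapped by 2 other genes in the reference table, and no gene overlaps a member. The sources used here do not say whether reads were counted by strand.

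Ratios between genes within a library do not depend on how the libraries are scaled, and they were taken for the 6 pairs of these 4 genes. The count ratio of 18-w to cact1 was 5.01 in the adult library, against 1.29 in the larval library, a 3.88-fold difference (3.28 to 4.59). Likewise 18-w to Imd differed 2.70-fold (2.39 to 3.06) and 18-w to Dl 2.87-fold (2.55 to 3.23), so the receptor gene was relatively higher in the adult library against each of the other 3. These ratios come from the same counts as the folds above. They do not remove the trend with coding length, and its part in them was not tested. Imd to cact1 differed 1.43-fold (1.22 to 1.68). Imd and Dl kept nearly the same ratio, at 0.791 in adult hemocytes and 0.746 in larval hemocytes, a 1.06-fold difference whose interval (0.952 to 1.18) includes 1.

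The inhibitor and the transcription factor were also set against each other. Counts of cact1 per count of Dl came to 0.225 in the adult library, against 0.305 in the larval library, a ratio of 0.739 (0.633 to 0.863). Per coding length there were 2.40 TPM of Dl for each TPM of cact1 in the adult library and 1.81 in the larval library. These are RNA levels and say nothing of protein or of nuclear localization. Dl and cact1 are on the same chromosome in the deposited target names, with 39 protein-coding genes between them in the reference table.

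**Figure D2:**
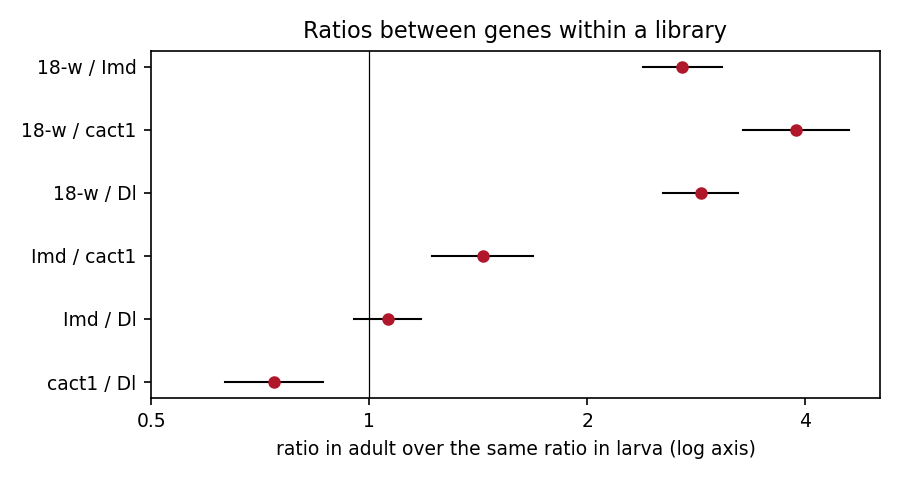
For each pair of genes (vertical axis), the ratio of their counts in the adult library divided by the same ratio in the larval library (log axis), with exact 95% conditional intervals that cover counting error only. The 3 pairs that start with 18-w lie between 2.70 and 3.88, Imd to Dl lies at 1.06 with an interval over 1, and cact1 to Dl lies at 0.739.

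The 8 coding sequences of the members were unequally used. The gene 18-w has 1 coding sequence of 4113 bases, and the gene in the reference table spans the same 4113 bases, so that model holds neither an intron nor an untranslated region. Imd has 3 sequences. A pair of 783 bases received equal estimates, 699.7 counts each in adult hemocytes and 497.4 each in larval hemocytes, which is how kallisto treats sequences that no read tells apart. Together that pair held 96.8% of Imd counts in the adult library (95.7 to 97.6) and 95.01% in the larval library (93.5 to 96.3). The remaining form, of 675 bases and so 36 codons shorter, had 46.5 counts in adult hemocytes and 52.3 in larval hemocytes, or 3.22% (2.40 to 4.30) and 4.99% (3.73 to 6.46) of the gene, and these intervals overlap.

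For cact1 a sequence of 1155 bases took nearly all counts. It held 412 of 412 counts in the adult library, against 405.5 of 428 in the larval library, or 94.7% (92.3 to 96.8). The other 22.5 larval counts were assigned to a form of 1185 bases, 10 codons longer, at 5.26% of the gene (3.25 to 7.68). That form had 0 of 412 counts in the adult library, which allows a share of up to 0.728% by the limit of 3 counts, a one-sided bound, and up to 0.891% by the exact interval used for the other shares. A pair of forms of 969 bases, 62 codons shorter than the leading one, had 0 counts in both libraries, for which the exact intervals reach 0.891% in adult hemocytes and 0.858% in larval hemocytes. These limits cover counting error and not the uncertainty of dividing shared reads.

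Dl divided its counts over more forms. The sequence of 1809 bases held 78.1% of counts in the adult library (76.1 to 79.9), against 87.1% in the larval library (85.2 to 88.8). A group of 5 sequences of 2433 bases with equal estimates, 208 codons longer, held 21.3% in the adult (19.4 to 23.2) and 12.9% in the larval library (11.2 to 14.8). A form of 1764 bases had 12.2 counts in adult hemocytes and 0 in larval hemocytes.

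Shifts of this size were common. The background for them includes genes with fewer counts than Dl. Shares of such genes carry more counting error, and that part was not separated. Over the 2688 genes that have at least 2 distinguishable coding sequences and at least 100 counts in each library, the share of the leading sequence differed between the libraries by a median of 5.72 percentage points. The difference was 1.77 points for Imd, 5.26 points for cact1 and -9.07 points for Dl (adult minus larva), and 73.6%, 52.4% and 36.8% of those genes had a larger one in either direction. In the whole set the leading sequence held a median of 81.9% of a gene's counts in adult hemocytes and 81.0% in larval hemocytes, so the leading sequences of Imd and cact1 lay above that median in both.

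**Figure D3:**
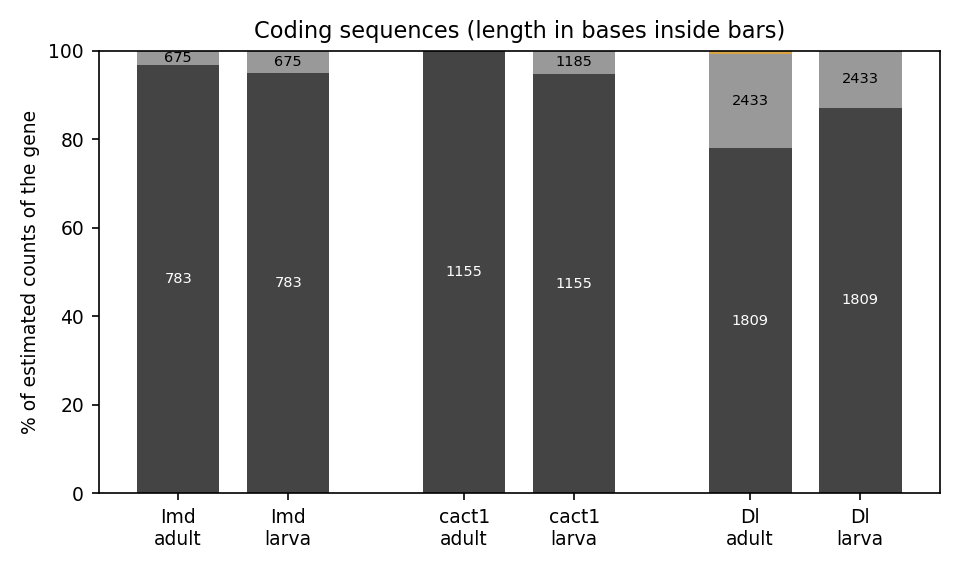
Percent of a gene's estimated counts (vertical axis, 0 to 100) by coding sequence for Imd, cact1 and Dl, with the adult bar left of the larval bar, and sequences of equal estimates drawn as 1 block labelled with its length in bases. The 1185-base form of cact1 appears only in the larval bar at 5.26%, and the 2433-base forms of Dl hold 21.3% in the adult and 12.9% in the larval bar.

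The other genes of the routes were taken from a list of symbols, of which 11 genes matched, members included, and 10 had enough counts to be compared. By the rule of size 4 of the 10 were called higher in the adult library, none in the larval library, and 6 were not called, beside 9.99% and 10.6% of all genes called on these sides. The list was drawn up with results for some of its genes known. It named Melt, the gene of the venom peptide melittin, among its targets, although Melt is not known as a gene of these routes. Without Melt, left out after the values were seen, 4 of 9 were called higher in the adult library and the median log2 fold was 1.62. With it the median log2 fold was 1.32, against 0.02 over all 8798 genes, and -0.21 over the 315 compared genes that carry a symbol. Of those 315, 33 were called higher in the adult library and 59 in the larval library. Def2 did not reach the count minimum. Most genes of the table carry only a locus number, so further Toll receptors, the ligand spätzle, the kinases and Relish were not analysed here.

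All 3 recognition genes of the list, a class that acts upstream of the receptors in Drosophila, were called higher in the adult library. PGRP-S3, a peptidoglycan recognition protein, had 1849 counts in the adult library, against 72 in the larval library, or 97.0 against 4.60 CPM, a fold of 20.9 (16.7 to 27.1). B-gluc1, a beta-glucan recognition gene, had 699 counts in adult hemocytes and 180 in larval hemocytes, or 36.7 and 11.5 CPM, a fold of 3.18 (2.70 to 3.78). Its fold was close to that of 18-w, at a log2 fold of 1.67 against 1.62. Whether bee 18-w acts in the same route as these genes was not tested. Pgrp-s2 had 295 counts in the adult library, against 1 in the larval library, a ratio of 242 (43.1 to 9599.9).

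Imd, cact1 and Dl, which belong between recognition and effectors in the order known from Drosophila, had smaller differences than 18-w. Whether 18-w has a place in that order was not tested. Imd, cact1 and Dl all lay between log2 folds of -0.34 and 0.18, and none was called. At the effector end, none of the 3 compared peptide genes that the list held as targets, Melt among them, was called. Apid1, which encodes the antimicrobial peptide apidaecin, had 1934 counts in the adult library, against 785 in the larval library, or 101.5 against 50.2 CPM. Its fold of 2.02 had an interval (1.86 to 2.20) that reaches below 2, and it was called higher in the adult library with plain totals and with upper-quartile factors. Def1, a defensin, had 126 counts in adult hemocytes and 2 in larval hemocytes, a ratio of 51.7 (14.0 to 432), but at 6.61 CPM it stayed under the minimum level. That minimum is not corrected for coding length, which is 288 bases for Def1. Per coding length Def1 stood at 79.2 TPM in adult hemocytes and 1.17 TPM in larval hemocytes. Of the genes compared, 0.693% had a higher log2 fold than Def1.

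The remaining peptide genes were near the limit of detection. Melt had 6 counts in adult hemocytes and 10 in larval hemocytes, and Def2, another defensin, had 5 and 0. For Def2 the exact interval in the larval library reaches 0.236 CPM. In TPM the highest gene of the list was Apid1 in both libraries, at 304 TPM in adult hemocytes and 108 TPM in larval hemocytes.

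**Figure D4:**
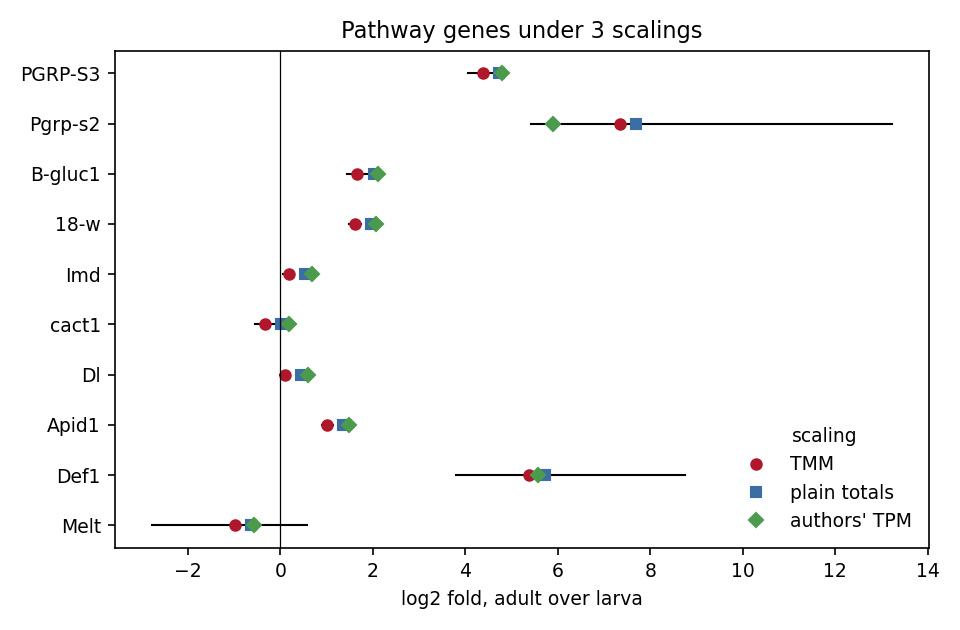
Log2 fold of adult over larva (horizontal axis) for the 10 compared genes of the list, ordered from recognition genes to targets, under TMM scaling (circles, with 95% counting intervals), plain totals (squares) and the authors' TPM (diamonds, log2 of TPM + 0.5). The 18-w values, 1.62, 1.96 and 2.07, are all above 1, and those of cact1, -0.34, 0.01 and 0.20, lie on both sides of 0.

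Placed among all genes, 18-w had a higher log2 fold than 89.4% of the genes compared, Imd than 56.1% and cact1 than 35.8%. The genes with a symbol that lay nearest to each member in log2 CPM over the 2 libraries were also read, a likeness over 2 points only. The log2 fold is set by the same 2 values, so similar folds follow from the choice. For 18-w the nearest were Psq, Uvop and Tret1. Psq, a pipsqueak transcription factor, was the closest at 96.3 CPM in adult hemocytes and 41.5 CPM in larval hemocytes, a log2 fold of 1.21, and those of Uvop, an ultraviolet-sensitive opsin, and Tret1, a trehalose transporter, were 1.20 and 1.10. For Imd the nearest were SPG11, INTS8 and Rep, with log2 folds of 0.38, 0.26 and -0.02. For cact1 they were Dscam, Sergef and CPF2, with log2 folds of -0.34, -0.19 and -0.32.

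**Figure D5:**
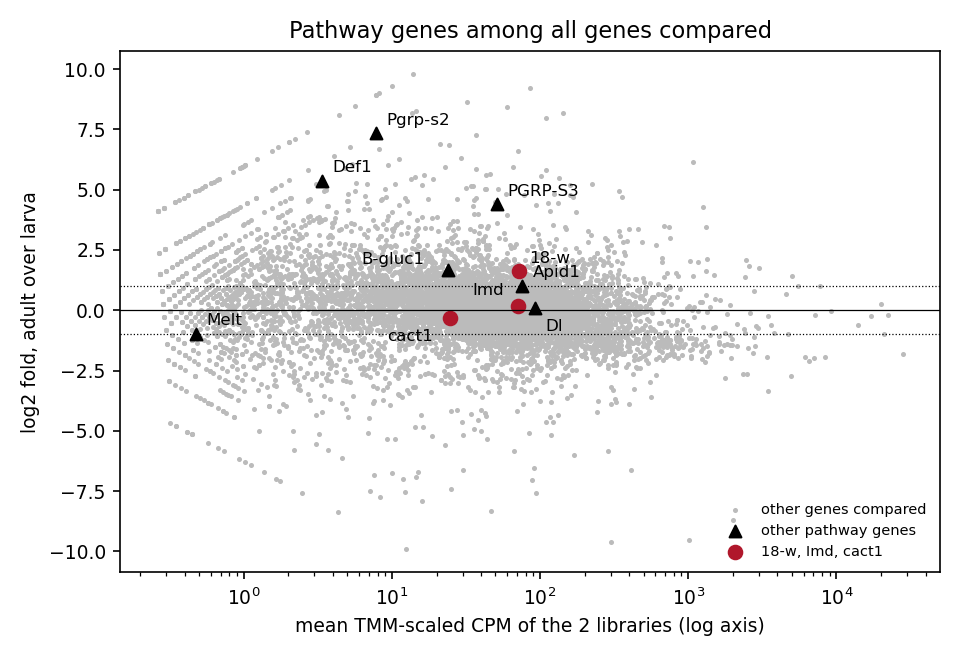
Log2 fold of adult over larva (vertical axis) against mean scaled CPM (log axis) for the 8798 genes compared, with members as circles and the other genes of the list as triangles. Dotted lines mark 2-fold. The 18-w point, at a log2 fold of 1.62, is above the upper dotted line, and Imd and cact1, at 0.18 and -0.34, lie between the lines.

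The genes next to the members were also read, after values were seen. By the rule of size 9.99% of all genes compared were called higher in the adult library and 10.6% in the larval library. How often neighbouring genes are called on the same side was not tested. Both protein-coding neighbours of 18-w in the reference table were called higher in the adult library: LOC408716 had 39.7 CPM in adult hemocytes and 10.7 CPM in larval hemocytes, a log2 fold of 1.88, and LOC408717 had 751 and 346 CPM, a log2 fold of 1.12. The neighbours of Imd, LOC552840 and LOC107964403, had log2 folds of -0.25 and 0.93, and neither was called. Of the neighbours of cact1, LOC412072 had a log2 fold of -0.52 and was not called. The other, LOC102656934, was called higher in the larval library, at 136 CPM in adult hemocytes and 287 CPM in larval hemocytes.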

How the data were processed

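The authors deposited estimated counts and TPM per RefSeq coding sequence, and kallisto made them, per the submitters' processing notes. The kallisto version and genome build are not stated in the sources used here. The deposited TPM sum to 1000000 in each library. RNA came from 320 µL of hemolymph, was selected by oligo(dT) and read as pairs of 150 bases, per the labels' protocols. All 23471 coding sequences matched the RefSeq gene table (Amel_HAv3.1), which gave names, gene spans and neighbours. Its coordinates served for spans, neighbours and overlaps and are not printed. Estimated counts were summed per gene and rounded. TMM factors from edgeR 4.0.16 in R 4.3.3 (1.13 for adult, 0.886 for larva) scaled the libraries and came from genes with 10 or more counts in all. Log2 folds of adult over larva use a prior of 0.5 counts. Intervals are Clopper-Pearson for ratios and shares, Poisson for CPM, and conditional exact for ratios between genes. Ratios printed where a library has 1 to 3 counts have no prior. Coding sequences with equal length and estimates equal to a relative tolerance of 0.0001 were grouped. Scripts were tested on simulated counts.

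Genes named are the 3 members, the symbol list, and the 3 genes with a symbol nearest to each member. Neighbours, pair ratios, coding sequence groups and comparisons by eighths were added after values were seen. Members and lists were chosen with earlier results of these data known. Python 3.11.15 with scipy 1.17.1, pandas 2.3.3 and matplotlib 3.10.9 did the rest.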

Additional observations from a re-analysis of the deposited data

How the results depend on the processing

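Of 56 values recomputed under other settings, 43 were scored as unchanged and 13 as moved. Unchanged meant within the counting interval for log2 folds and shares, and within 1.5 times for gene counts. The median of the listed pathway genes has no counting interval, and the limit used to score it is not given here. No called value changed sign. With plain totals in place of TMM the log2 folds became 1.96 for 18-w, 0.53 for Imd and 0.0100 for cact1. With the authors' TPM they were 2.07, 0.69 and 0.20, and the median of the listed pathway genes was 1.78. The median over all genes compared was 0.02 with TMM, 0.37 with plain totals and 0.49 with TPM. Plain totals shift every gene alike by construction. TPM also differ in length correction and prior, and the cause of their shifts was not tested. The 18-w gene was called higher in the adult library under every count scaling tried, and was not called at 4-fold. Other priors, count filters, RLE and upper-quartile factors, totals without mitochondrial genes and a single coding sequence per gene left the log2 folds of the 3 genes within their counting intervals.

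Genes called higher on the adult and on the larval side numbered 879 and 931, against 1421 and 575 with plain totals and 1844 and 460 with TPM, which has no interval. At 4-fold they numbered 276 and 239, fewer by construction than at 2-fold. Of the calls, 48.6% were on the adult side with TMM, 71.2% with plain totals and 80.0% with TPM. No paired analysis was possible because each stage has 1 library. For the same reason no library could be left out.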
